A study of Mus musculus with 6 samples.

Results

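Messenger RNA of 7 metabolite-sensing G protein-coupled receptors, Hcar1, Hcar2, Ffar2, Ffar3, Ffar4, Sucnr1 and Gpr84, was measured by RNA sequencing in 3T3-L1 adipocytes and 3T3-L1 preadipocytes. The 7 genes were picked by name out of 54752 genes listed per library, and each was found through its gene identifier in GENCODE M21 on the mouse build GRCm38. They were picked with results of this same contrast in view. Their differences between adipocytes and preadipocytes are therefore given as a description, and the edgeR calls on them are counted only to set them beside those of all genes. In adipocytes 5 of the 7 receptors, Ffar2, Hcar1, Ffar4, Hcar2 and Sucnr1, reached at least 1 TPM, a level scaled by transcript length and by the size of the library, in every adipocyte library. In preadipocytes the same 5 receptors had no counts at all, apart from 2 counts of Hcar2. Gpr84 was close to 0 in both states, and Ffar3, the neighbour and closest relative of Ffar2, had 0 counts in all 6 libraries.

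Metabolite-sensing receptors sit in the cell membrane and respond to small products of metabolism in the surrounding fluid, so that a cell can read the fuel state of its tissue. HCAR1 binds lactate, HCAR2 binds the ketone body beta-hydroxybutyrate and the vitamin niacin, FFAR2 and FFAR3 bind short-chain fatty acids such as acetate and propionate, GPR84 responds to medium-chain fatty acids, FFAR4 to long-chain fatty acids and SUCNR1 to succinate. Most of them signal through Gi proteins, which inhibit adenylyl cyclase and lower cyclic AMP. FFAR2 can also use Gq proteins, and FFAR4 acts largely through Gq and arrestin. In fat cells cyclic AMP drives lipolysis, the release of fatty acids from stored triglyceride, and HCAR1, HCAR2 and FFAR2 are known there as brakes on lipolysis.

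3T3-L1 is an established mouse line of fibroblast-like cells that can turn into fat-storing cells in culture. The 3T3-L1 adipocytes (libraries adipocyte 1, 2 and 3) were set against 3T3-L1 preadipocytes (libraries preadipocyte 1, 2 and 3). All 6 carried the strain label C57BL/6J, the tissue label Embryo, no treatment, and one shared medium entry with bovine calf and fetal bovine serum abbreviations and the term DMI, which the labels leave unexplained. Groups were read from titles and cell types, because the source name said Adipocyte throughout. The labels name no genetic change and no day of harvest, and the line stands for cultured cells, not for a fat depot. They do not say whether the replicates were grown as separate cultures, so p-values below measure how these samples scatter, and that scatter may be technical.

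Total expected counts lay between 22496486 and 26314076 per library. All 9 adipocyte marker genes on a chosen list were higher in adipocytes and all 8 preadipocyte markers were lower, with fitted log2 changes of 15.20 for Adipoq and -4.53 for Dlk1. Among the adipocyte markers, Lep had 1019 counts in adipocytes against 0 in preadipocytes. It passed the low-count filter through the adipocyte libraries alone, so its call supports nothing. Of 14726 genes tested with edgeR's quasi-likelihood test at a Benjamini-Hochberg adjusted p of 0.05, 5252 were higher in adipocytes (35.7%) and 5575 lower (37.9%), or 73.5% in either direction. The receptor counts are set beside that background, where 5 of the 7 receptors were called higher and 0 lower by edgeR, with 0 lower at an unadjusted p of 0.05 in edgeR or DESeq2 as well. The other 2, Ffar3 and Gpr84, did not pass the low-count filter. The 5 passed it through the adipocyte libraries alone, so they had to differ and the count supports nothing. In these bulk samples fewer cells of a type and less RNA per cell cannot be told apart.

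**Figure D1:**
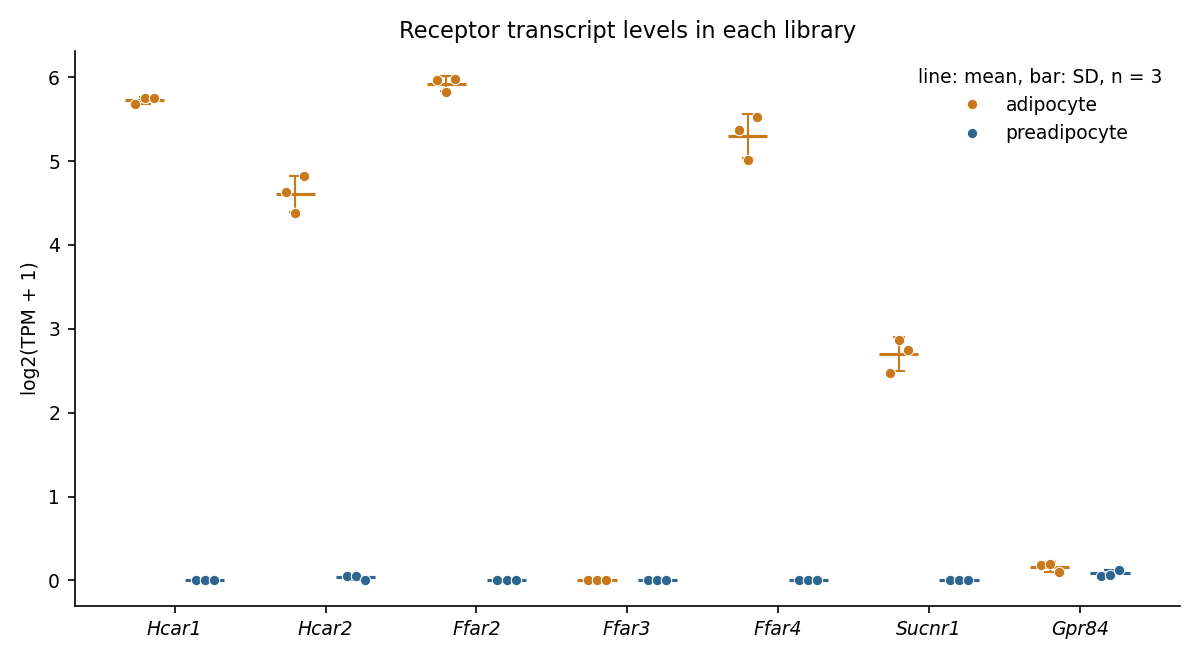
Level of each receptor transcript in every library as log2(TPM + 1), with adipocyte libraries to the left of preadipocyte libraries, a line for the mean and a bar for the SD of the 3 values. Ffar2, Hcar1, Ffar4, Hcar2 and Sucnr1 stand well above 0 in adipocytes and at or next to 0 in preadipocytes, whereas Gpr84 stays near 0 and Ffar3 at 0 in both.

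The lactate receptor gene Hcar1 (ENSMUSG00000049241.5, chr5:123876736-123880020, minus strand) is a single-exon gene that codes for 351 codons. Its level was 50.24, 52.83 and 52.78 TPM in adipocyte libraries 1, 2 and 3, against 0 TPM in each preadipocyte library. These values rest on 2912, 2755 and 2909 counts in adipocytes, 8576 together, against 0 counts in preadipocytes. Hcar1 had the most counts of the 7 receptors, and its adipocyte libraries lay close together and far from the preadipocyte libraries. Set against a floor of 3 counts over the preadipocyte group, Hcar1 was at least 3315-fold higher in adipocytes, in CPM, the counts scaled by a TMM-adjusted library size.

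The ketone body and niacin receptor gene Hcar2 (ENSMUSG00000045502.6, chr5:123863570-123865499, minus strand, 1 exon) lies beside Hcar1 in the same orientation, with 11237 bases between them. Hcar2 stood at 23.76, 19.90 and 27.19 TPM in adipocyte libraries 1, 2 and 3, against 0.04, 0.04 and 0 TPM in preadipocyte libraries 1, 2 and 3. In counts this was 778, 586 and 847 in adipocytes, against 1, 1 and 0 in preadipocytes. Hcar2 was the only receptor of the 5 with any preadipocyte counts, and the groups did not overlap. The ratio in CPM was 1281, adipocytes over preadipocytes, with an exact 95% interval of 354 to 10587 that covers counting error only.

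Ffar2 and Ffar3, 2 receptors for short-chain fatty acids, are neighbours on chromosome 7 in the same orientation, and only Ffar2 had counts. Ffar2 (ENSMUSG00000051314.11, chr7:30818348-30823775, minus strand) stood at 61.63, 55.50 and 62.23 TPM in adipocyte libraries 1, 2 and 3, against 0 TPM in each preadipocyte library. Its counts were 1493, 1324 and 1570 in adipocytes, against 0 in preadipocytes, and it was at least 1693-fold higher in adipocytes. Ffar2 was the most abundant of the 7 transcripts per length in all 3 adipocyte libraries. Ffar3 (ENSMUSG00000019429.7, chr7:30854330-30856178, minus strand), which lies 30555 bases away from Ffar2, had 0 counts in each adipocyte library and 0 counts in each preadipocyte library. Within adipocytes alone, Ffar2 had at least 1462 times the counts that a floor of 3 allows for Ffar3. Shared sequence can blur counts of related genes, but only 9 of the 31-base words of Ffar2 transcripts (0.324%) occur in any other gene, and none of those of Ffar3 do.

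The start regions of Ffar2 and Ffar3 are printed because these adjacent relatives were so unlike in adipocytes, and that of Hcar1 because it gave the most counts. Each run holds the 250 bases before a RefSeq transcript start on GRCm38.p6, read 5′ to 3′ on the minus strand, at chr7:30823776-30824025 for the outermost start of Ffar2, chr7:30856179-30856428 for Ffar3 and chr5:123880004-123880253 for Hcar1. Capitals mark AGGTCA, a sequence bound by many nuclear receptors, which is found here on the opposite strand and so reads TGACCT.
Ffar2: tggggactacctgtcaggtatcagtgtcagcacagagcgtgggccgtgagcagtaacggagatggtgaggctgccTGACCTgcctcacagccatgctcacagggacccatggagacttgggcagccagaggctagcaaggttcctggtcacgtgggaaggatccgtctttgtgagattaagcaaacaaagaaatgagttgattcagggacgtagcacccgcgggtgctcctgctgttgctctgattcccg
Ffar3: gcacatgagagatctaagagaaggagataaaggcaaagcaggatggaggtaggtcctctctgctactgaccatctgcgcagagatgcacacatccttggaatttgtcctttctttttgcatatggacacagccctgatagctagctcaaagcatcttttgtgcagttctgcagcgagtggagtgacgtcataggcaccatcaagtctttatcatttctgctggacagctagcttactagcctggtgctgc
Hcar1: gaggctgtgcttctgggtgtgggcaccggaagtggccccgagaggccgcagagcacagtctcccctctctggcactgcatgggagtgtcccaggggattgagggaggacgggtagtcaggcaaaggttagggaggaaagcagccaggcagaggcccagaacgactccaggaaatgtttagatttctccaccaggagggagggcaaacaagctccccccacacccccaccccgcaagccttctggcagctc
The Ffar2 window holds that match 175 bases before its start, while the Ffar3 and Hcar1 windows hold none.

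RefSeq windows were at hand for 6 of the 7 receptors, all but Hcar2, and came to 9 because Ffar2 has several starts. AGGTCA, searched on both strands, occurred in 4 of the 9, at 142 and 89 bases before a pair of inner Ffar2 starts, at 175 bases before the outermost one and at 234 bases before that of Gpr84. The windows of the inner pair overlap and share 1 copy. Among all 32851 RefSeq mouse windows of the same length, 14.0% hold AGGTCA. The direct repeat DR1, known from PPAR-gamma bound with its partner RXR, is AGGTCA written again after any single base, so that each match also counts as AGGTCA. It occurred in none of the 9 and in 0.0335% of all windows. TATAAA was in none of the 9 and in 12.4% of all windows. These letters describe 250-base windows and say nothing of whether a factor bound there or elsewhere.

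Ffar4 (ENSMUSG00000054200.6, chr19:38097071-38114263, plus strand, 3 exons) encodes the receptor for long-chain fatty acids once called GPR120. Ffar4 reached 40.49, 31.30 and 44.99 TPM in adipocyte libraries 1, 2 and 3, against 0 TPM in each preadipocyte library. The counts were 921, 640 and 974 in adipocytes, 2535 together, against 0 in preadipocytes. Adipocyte library 2 was the lowest of the 3 but remained far from the preadipocyte libraries, and Ffar4 was at least 975-fold higher in adipocytes.

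Sucnr1 (ENSMUSG00000027762.6, chr3:60081869-60087566, plus strand, 2 exons) encodes the receptor for succinate, an intermediate of the citric acid cycle. It was the weakest of the 5 receptors, at 4.57, 6.32 and 5.73 TPM in adipocyte libraries 1, 2 and 3, against 0 TPM in each preadipocyte library. Its counts were 119, 148 and 142 in adipocytes, against 0 in preadipocytes, which made it at least 159-fold higher in adipocytes. The length the authors' quantification used for Sucnr1 in adipocytes was 1571 bases, that of its longer annotated transcript, and not the 366 bases of the other one. For Ffar2 the length was 1472, 1596 and 1595 bases in adipocyte libraries 1, 2 and 3, which equals no single one of its transcripts (565 to 2301 bases), so its TPM rests on how reads were shared among them.

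Gpr84 (ENSMUSG00000063234.5, chr15:103308235-103310612, minus strand), the receptor for medium-chain fatty acids, is best known from myeloid cells. It stood at 0.14, 0.15 and 0.07 TPM in adipocyte libraries 1, 2 and 3, against 0.04, 0.05 and 0.09 TPM in preadipocyte libraries 1, 2 and 3. In counts this was 4, 4 and 2 in adipocytes, against 1, 1 and 2 in preadipocytes. The groups overlapped at 2 counts, and the ratio of 2.90 had a 95% counting interval of 0.836 to 12.7, so no difference was detectable at this depth. The antisense gene Gm49482 overlaps Gpr84, and 652 of the 31-base words of Gpr84 (38.5%) also occur in it on the opposite strand. Gm49482 was listed at 0 in all 6 libraries, and since the strandedness of the libraries is not given in the sources used here, reads of these overlapping genes cannot be told apart.

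Ordered by mean TPM in adipocytes, Ffar2 stood first at 59.8 ± 3.72 TPM (SD, n = 3), followed by Hcar1 at 51.9 ± 1.48, Ffar4 at 38.9 ± 6.98, Hcar2 at 23.6 ± 3.65, Sucnr1 at 5.54 ± 0.890 and Gpr84 at 0.120 ± 0.0436 TPM, with Ffar3 at 0. The order was the same in 3 of 3 libraries, and no receptor overlapped its neighbour in the order. Ffar2 had 1.23, 1.05 and 1.18 times the TPM of Hcar1 in libraries 1, 2 and 3, and Hcar1 had 1.24, 1.69 and 1.17 times that of Ffar4. These steps were small in some libraries, and that between Ffar2 and Hcar1 also rests on the estimated length of Ffar2. In counts, where a long transcript collects more reads, the order differed, because Hcar1 is 3285 bases long.

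Against all 23756 genes with a count in some adipocyte library, Ffar2 was above 90.7% by mean TPM, Hcar1 above 89.3%, Ffar4 above 86.1%, Hcar2 above 79.4%, Sucnr1 above 61.2% and Gpr84 above 27.9%. In adipocytes 909 protein-coding genes had counts while no preadipocyte library had any. Only 74 of these 909 passed both the low-count filter and the adjusted p threshold in edgeR. The rest were either left untested by that filter or tested and not called. The 74 passed the filter through the adipocyte libraries alone, so their calls support nothing. Ranked by adipocyte TPM among these 909, Ffar2 came in place 6, Hcar1 in 7, Ffar4 in 9 and Sucnr1 in 25. The receptors were picked with results of this contrast in view, so their places are a description only. Cox8b, Adig, Mrap and Wfdc21 took the places 1 to 4. Summed over the 7 receptors, transcripts amounted to 180.8, 166.0 and 193.0 TPM in adipocyte libraries 1, 2 and 3, against 0.08, 0.09 and 0.09 TPM in preadipocyte libraries 1, 2 and 3. Ffar2 made up 33.3% of the adipocyte sum on average, Hcar1 29.0%, Ffar4 21.5%, Hcar2 13.1% and Sucnr1 3.10%.

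The receptors differed in how steady they were across adipocyte libraries. Hcar1 stood at 125.9, 128.7 and 125.9 CPM in libraries 1, 2 and 3, a coefficient of variation of 1.29%, where counting error alone would give 1.87%. Ffar2 stood at 64.5, 61.8 and 67.9 CPM, with a coefficient of 4.70% beside 2.62% from counting. Hcar2 and Ffar4 spread several times further than counting error, with coefficients of 14.5% beside 3.68% and of 17.4% beside 3.44%. Both were lowest in library 2, where Hcar2 had 27.4 CPM beside 33.6 and 36.6 in libraries 1 and 3, and Ffar4 had 29.9 CPM beside 39.8 and 42.1. Sucnr1 ran the other way, with 5.14, 6.91 and 6.14 CPM and its highest value in library 2, with a coefficient of 14.6% beside 8.56% from counting. Hence Hcar1 exceeded Hcar2 by 2.11, 2.65 and 1.94 times in TPM, while Ffar4 and Hcar2 kept a steadier ratio of 1.70, 1.57 and 1.65. Adipocyte library 2 also held more nuclear ribosomal RNA, 0.731% of counts beside 0.0494% and 0.0706% in libraries 1 and 3, and its part in these values was not tested.

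**Figure D2:**
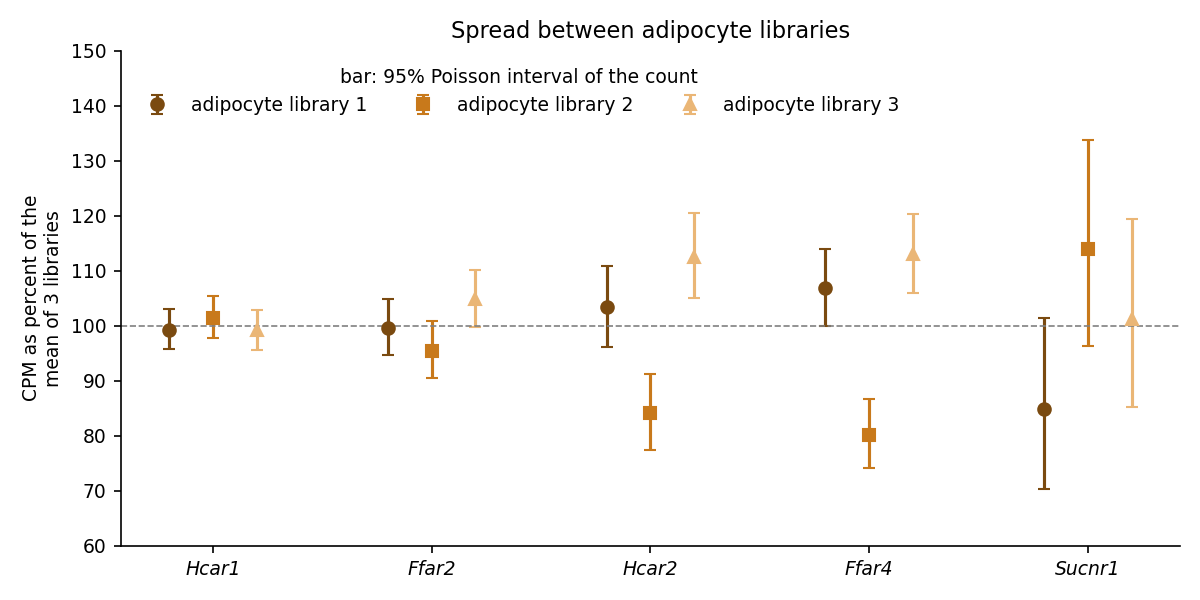
CPM of 5 receptors in each adipocyte library as a percent of the receptor's mean over the 3 libraries, with 95% Poisson intervals of the count. Hcar1 and Ffar2 stay within a few percent of 100, while Hcar2 and Ffar4 drop in library 2 with intervals that do not reach those of libraries 1 and 3.

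The genes on either side of each receptor were read as a measure that played no role in choosing the receptors. Of 11 distinct neighbours, including Gm49482, 6 could be tested, of which 3 were higher in adipocytes, 2 lower and 1 passed in neither direction. Over all tested genes 35.7% were higher and 37.9% lower, so these counts set the neighbours apart from no other genes. Beside the Hcar pair, the translation factor gene Denr stood at 86.7 ± 3.36 CPM in adipocytes against 53.0 ± 0.0577 CPM in preadipocytes (SD, n = 3 each), a log2 change of 0.71. On the other flank the kinetochore gene Kntc1 was lower, at 1.09 ± 0.257 CPM against 9.29 ± 0.261 CPM, a log2 change of -3.08. So the pair with no more than 2 preadipocyte counts lies between genes that both had counts in preadipocytes. Around Ffar2 and Ffar3, the outer neighbours Krtdap and Ffar1, a receptor for long-chain fatty acids best known from pancreatic beta cells, each had 1 adipocyte count and 0 preadipocyte counts.

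**Figure D3:**
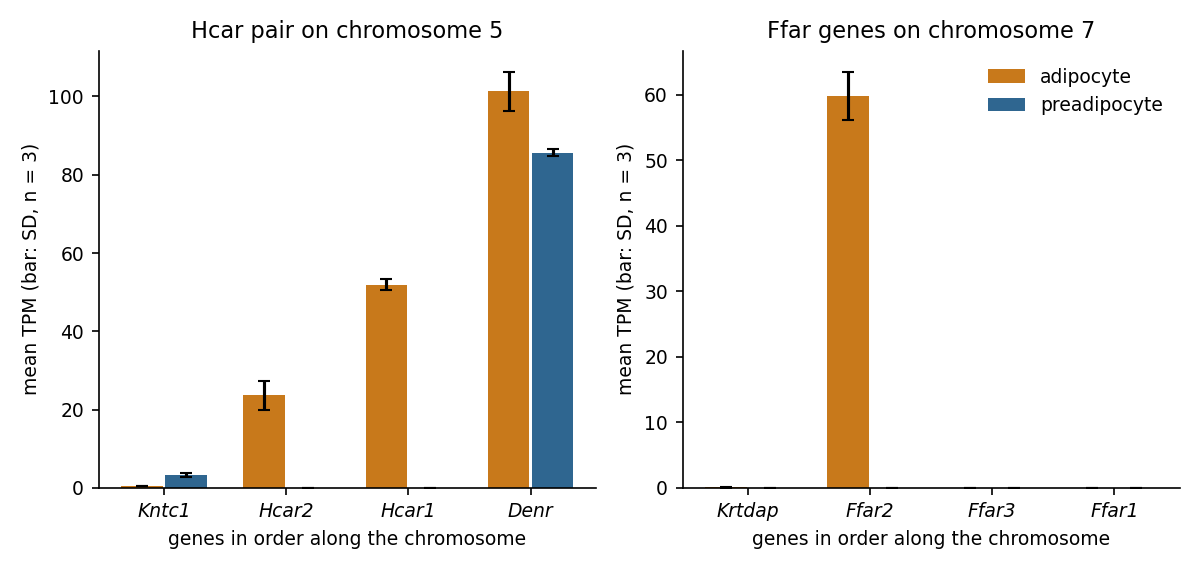
Mean TPM of the Hcar pair and of Ffar2 and Ffar3 with the nearest protein-coding gene on each side, in order along the chromosome, adipocyte bars to the left of preadipocyte bars, with SD over 3 libraries. Denr has tall bars in both states, while Kntc1, at 0.413 TPM in adipocytes and 3.33 TPM in preadipocytes, hardly rises from the axis. Of the genes on chromosome 7 drawn here Ffar2 alone stands out.

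The nearest genes to Ffar4 were Rbp4, with 1 adipocyte count and 0 preadipocyte counts, and the cytokinesis gene Cep55, which was lower in adipocytes by a log2 change of -1.60 (SE 0.29, edgeR adjusted p = 8.4e-04). Next to Sucnr1, Aadac had 0 counts, and the splicing regulator gene Mbnl1 had a log2 change of 0.65 (SE 0.18, edgeR adjusted p = 0.0093). That call on Mbnl1 was lost with total-count scaling (0.32) and on the TPM scale (0.12). Beside Gpr84, Copz1, a coat protein gene of vesicles, was called higher at a log2 change of 0.38, but the call was lost with total counts (0.05) and the sign turned on the TPM scale (-0.13). Zfp385a passed in neither direction, at 0.24 (SE 0.13, edgeR adjusted p = 0.13), with either sign among the alternatives.

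Other receptors for metabolites were scarce in both states. Of 16 on a chosen list, which included Ffar1, Gpr119, Gpbar1, Casr, Gpr35 and Gpr183, 7 had 0 counts in all libraries and only 2 had enough to be tested. Their summed level was 0.79 to 1.33 TPM in adipocytes and 0.97 to 1.38 TPM in preadipocytes. Tas1r3, a subunit of sweet and umami taste receptors, stood at 0.471 ± 0.0945 CPM in adipocytes and 0.677 ± 0.0654 CPM in preadipocytes (SD, n = 3 each). With edgeR 0 of the 2 passed in either direction, also at an unadjusted p of 0.05 and with DESeq2, whereas total-count scaling and limma on TPM called Tas1r3 lower.

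The alpha subunits that carry Gi signals were lower in adipocytes, where the Gi-linked receptors above had their counts. All 4 that could be tested, Gnai2, Gnai3, Gnao1 and Gnaz, were lower, with a median log2 change of -0.98 beside -0.06 over all tested genes, and Gnai1 had 0 counts. Gnai2, the one with the highest CPM, stood at 218 ± 27.4 CPM in adipocytes against 469 ± 43.1 CPM in preadipocytes (SD, n = 3 each), a log2 change of -1.11 (SE 0.11, edgeR adjusted p = 2.1e-05). Gnai3 stood at 103 ± 15.4 CPM against 185 ± 16.8 CPM, a log2 change of -0.85 (SE 0.12). The call of all 4 was the same under each of the 13 alternative settings. Gnaz had 6, 2 and 9 counts in the adipocyte libraries, against 25, 31 and 25 in the preadipocyte libraries. It passed the low-count filter through the preadipocyte libraries alone, so its call supports nothing. Of the Gq alpha subunits, Gna11 was higher, at 153 ± 18.7 CPM in adipocytes against 86.9 ± 5.93 CPM in preadipocytes, a log2 change of 0.82 (SE 0.10). Gnaq passed as higher at 0.24 (SE 0.08, edgeR adjusted p = 0.027), but it turned to -0.09 with total-count scaling and to -0.19 and -0.20 with limma on TPM, and the call was lost without adipocyte library 2 (0.26) and without preadipocyte library 1 (0.19) or 3 (0.24).

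Among 12 tested beta and gamma subunits, which form the other arm of a G protein, 4 were higher and 5 lower. This split lay near that of all tested genes, 35.7% higher and 37.9% lower. Gnb5, a beta subunit that pairs with some RGS proteins, was higher, at 62.2 ± 6.13 CPM in adipocytes against 11.5 ± 0.847 CPM in preadipocytes, a log2 change of 2.44 (SE 0.10). Gng8 and Gnb4 were lower, with log2 changes of -3.50 (SE 0.27) and -2.79 (SE 0.29). The split was 3 higher and 7 lower with total counts, 3 higher and 8 lower with limma on TPM, and 5 higher and 6 lower with a replicate block. Of the arrestins and receptor kinases, which switch receptors off and draw them into the cell, 4 of 6 were higher and 1 lower. Arrb1 was at 63.9 ± 0.700 CPM in adipocytes against 35.4 ± 1.34 CPM in preadipocytes, a log2 change of 0.85 (SE 0.07), Grk6 had 0.78 (SE 0.12) and Grk5 had -0.75 (SE 0.08). The call on Grk6 was lost with limma on TPM (0.19 and 0.20). The split of the list became 1 higher and 2 lower with limma on TPM, 3 higher and 2 lower with total counts, and 4 higher and 2 lower with a replicate block.

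RGS proteins shorten G protein signals by speeding GTP hydrolysis on alpha subunits. Of 9 tested, 1 was higher and 5 lower, with a median log2 change of -0.88. The 1 was Rgs2, which acts mainly on Gq, at 223 ± 6.27 CPM in adipocytes against 12.7 ± 0.430 CPM in preadipocytes, a log2 change of 4.14 (SE 0.08, edgeR adjusted p = 1.8e-09). Rgs4, which acts on Gi and Gq, had the largest fall of the list, to 0.179 ± 0.0521 CPM in adipocytes against 7.38 ± 0.363 CPM in preadipocytes, a log2 change of -5.34 (SE 0.22). With total counts or limma on TPM, 7 were lower, Rgs16 and Rgs19 being added, and with a replicate block, or without adipocyte library 1, 6 were lower, Rgs16 being added.

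**Figure D4:**
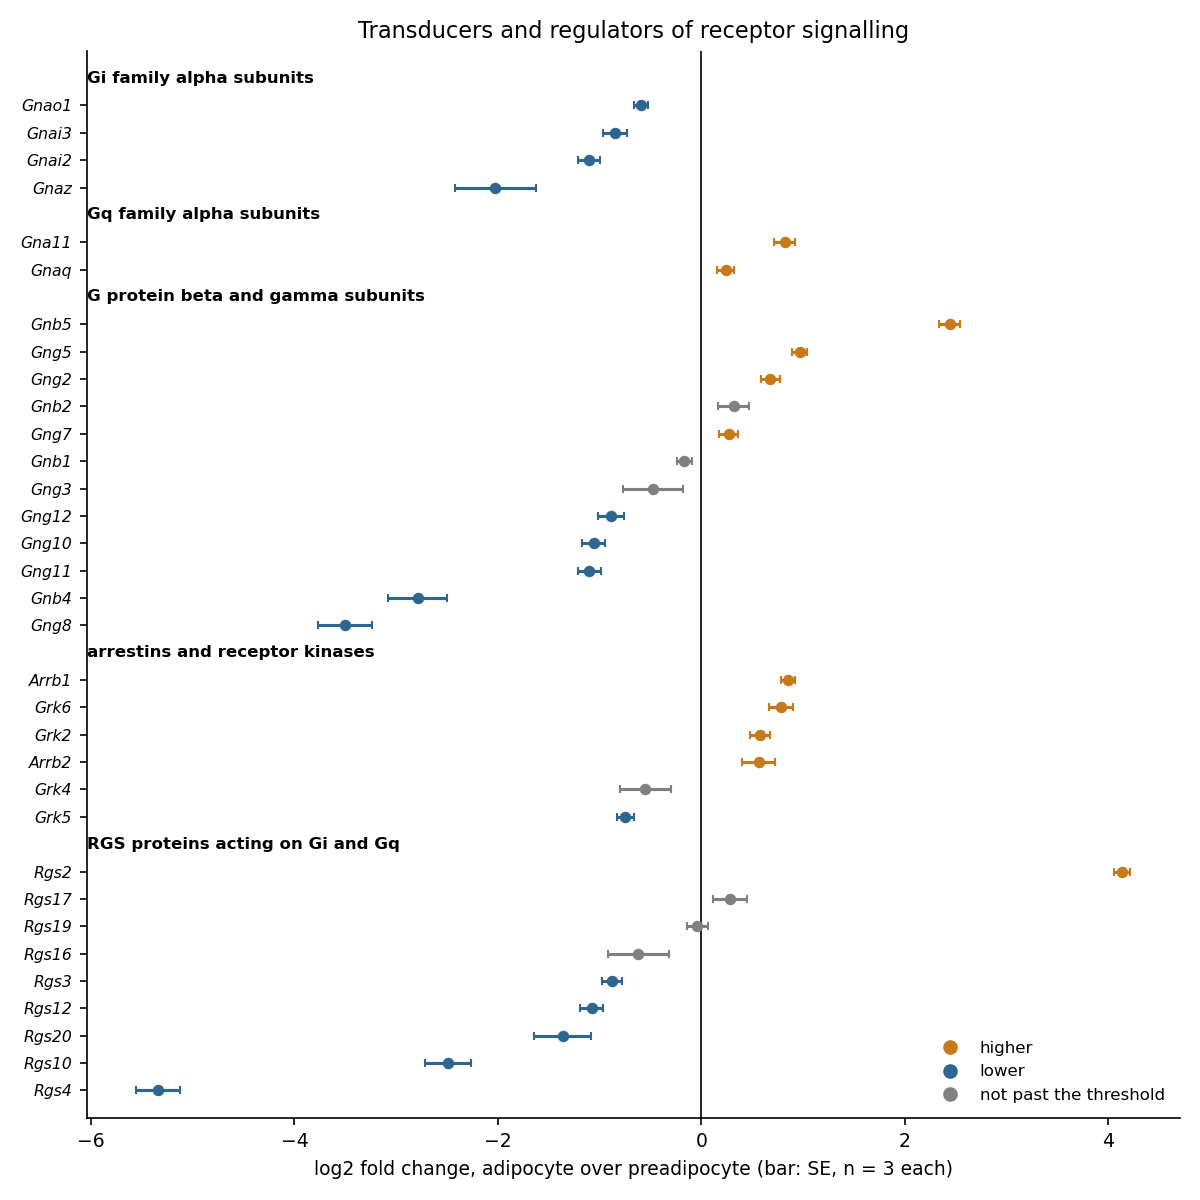
Fitted log2 fold change, adipocyte over preadipocyte, with its SE, for every tested G protein subunit, arrestin, receptor kinase and RGS gene of the lists, 3 libraries per state. All 4 Gi family alpha subunits lie below 0, and Rgs2 at 4.14 and Rgs4 at -5.34 mark the ends of the range.

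Other Gi-coupled receptors that restrain lipolysis did not share 1 direction. Adora1, an adenosine receptor, had 189, 168 and 145 counts in adipocyte libraries 1, 2 and 3, against 0 in each preadipocyte library, and was at least 194-fold higher in adipocytes. Npy1r, a neuropeptide Y receptor, was lower, with 3, 1 and 3 counts in adipocytes, against 1175 counts in the 3 preadipocyte libraries together, a log2 change of -7.11 (SE 0.22). Npy1r passed the low-count filter through the preadipocyte libraries alone and had to differ, so its call supports nothing. The prostaglandin E2 receptor gene Ptger3 passed in neither direction with edgeR, at -0.35 (SE 0.34, adjusted p = 0.41), though limma on TPM called it lower.

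Downstream of the receptors, 9 of 12 tested genes for adenylyl cyclases, kinase subunits, a phosphodiesterase and lipases were higher in adipocytes and 3 lower, with a median log2 change of 1.79. The triglyceride lipase gene Pnpla2 stood at 2323 ± 435 CPM in adipocytes against 14.1 ± 2.29 CPM in preadipocytes (SD, n = 3 each), a log2 change of 7.36 (SE 0.20, edgeR adjusted p = 6.5e-09). The monoglyceride lipase gene Mgll had 1470 counts in adipocytes against 3 in preadipocytes, a ratio of 568 with a 95% counting interval of 194 to 2757. The cyclase gene Adcy7 was lower, at 0.527 ± 0.368 CPM in adipocytes against 4.03 ± 0.105 CPM in preadipocytes, a log2 change of -2.91 (SE 0.34). Adcy9, higher at 0.20, lost that call in 7 of the 13 alternatives. With limma on TPM the split was 7 higher and 4 lower, with other calls for Adcy6 and Adcy9 only. A gene called higher by edgeR was therefore called lower there.

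Genes that make, use or move the ligands were listed ligand by ligand. For lactate, the HCAR1 ligand, 5 of 6 tested genes were higher and 1 lower, with a median log2 change of 1.0. The lactate dehydrogenase genes Ldha and Ldhb were higher, with log2 changes of 3.16 (SE 0.12) and 1.53 (SE 0.15), and Ldha stood at 1893 ± 240 CPM in adipocytes against 211 ± 17.3 CPM in preadipocytes. Emb, a helper of monocarboxylate transporters, was lower at -3.49 (SE 0.19). Slc16a3, a lactate exporter, lost its call without adipocyte library 3, without preadipocyte library 2 and with total counts, and both Slc16a3 and the transporter gene Slc16a1 lost theirs with limma on TPM, where 3 of 6 were higher. For ketone bodies, of which beta-hydroxybutyrate is the HCAR2 ligand, 4 of 6 were higher and 2 lower, with a median of 1.72. Aacs, which turns acetoacetate into acetoacetyl-CoA, had 2.80 (SE 0.10), the thiolase gene Acat1 had 1.96 (SE 0.08), and the hydroxybutyrate dehydrogenase gene Bdh2 was lower at -4.68 (SE 0.19).

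For short-chain fatty acids, the ligands of FFAR2 and FFAR3, 5 of 8 listed genes for activation and release could be tested. All 5 were higher, with a median log2 change of 2.88 that stays the same with Acsm5 at its bound. Acsm5, an acyl-CoA synthetase gene of the medium-chain family, had 242 counts in adipocytes against 0 in preadipocytes, at least 93.4-fold higher. Acss3, a synthetase for propionate, had 624 counts against 2, a ratio of 362 with a 95% counting interval of 99.7 to 2993. Acsm5 and Acss3, like Adora1 and Mgll above and Camp below, passed the low-count filter through the adipocyte libraries alone. They had to differ, so their calls support nothing. Gnaz, Gng8, Rgs4 and Npy1r above passed that filter through the preadipocyte libraries alone, so their calls support nothing either. For succinate, the ligand of SUCNR1, all 9 tested genes were higher, with a median of 2.45. The mitochondrial dicarboxylate carrier gene Slc25a10 stood at 692 ± 152 CPM in adipocytes against 29.1 ± 5.70 CPM in preadipocytes, a log2 change of 4.57 (SE 0.20), and the succinate dehydrogenase subunit gene Sdhb had 3.21 (SE 0.13). For longer fatty acids, the ligands of FFAR4 and GPR84, a list for release and uptake was read. All 8 tested genes were higher, with a median of 5.46, and Slc27a1 lost its call with total counts and with limma on TPM. Acadm, a gene of fatty acid oxidation, is also on that list. Pnpla2, Lipe and Mgll are on it too and were already counted among the downstream genes. The fatty acid translocase gene Cd36 had the largest fitted change of that list, at 2207 ± 240 CPM in adipocytes against 0.761 ± 0.287 CPM in preadipocytes, a log2 change of 11.49 (SE 0.23). Transcript levels say nothing of how much of any ligand was present.

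**Figure D5:**
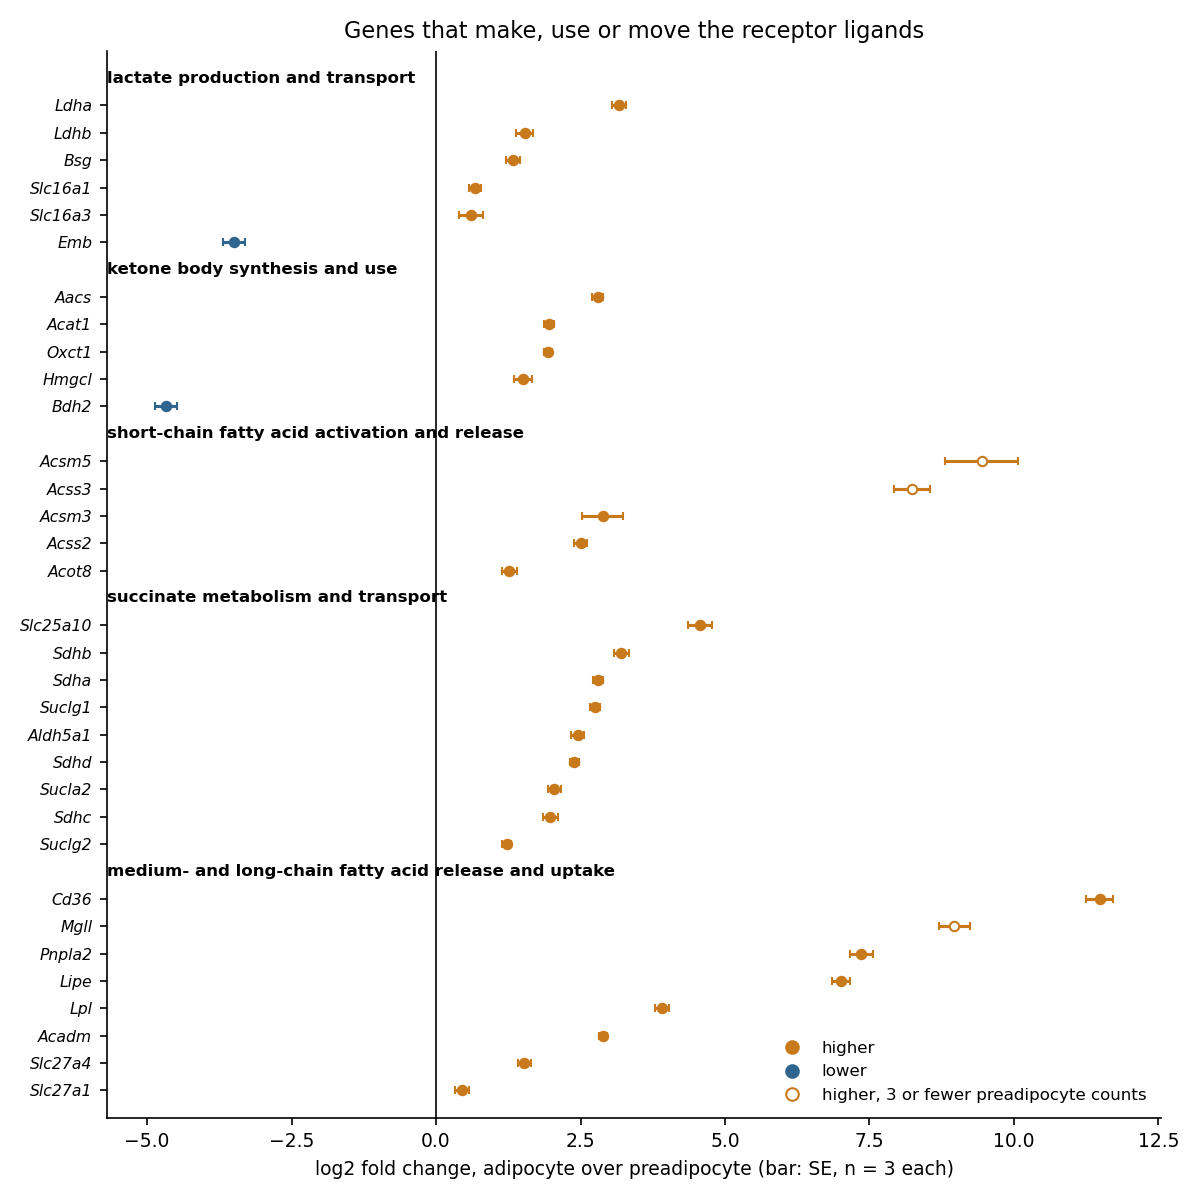
Fitted log2 fold change, adipocyte over preadipocyte, with its SE, for tested genes that make, use or move a ligand of the receptors, 3 libraries per state. Open points had 3 or fewer preadipocyte counts, so their fitted values lean on the prior count used by edgeR, and Emb and Bdh2 are the genes drawn below 0.

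Several of the receptors are also known from myeloid cells, so markers of those cells were read beside them. The 10 macrophage markers summed to 10.2 to 12.7 TPM in adipocytes and 24.4 to 24.9 TPM in preadipocytes, most of it Mertk (log2 change -0.57, SE 0.09). Of these, 3 of 4 tested were lower, Adgre1 and Itgam had 0 counts in all 6 libraries, and Ptprc, which marks all blood leukocytes, had 0 counts in adipocytes and 1 in preadipocytes. The 8 neutrophil markers summed to 7.57 to 10.3 TPM in adipocytes and 0.78 to 0.92 TPM in preadipocytes, and 3 of the 4 that could be tested, Camp, Elane and S100a8, were higher. Camp, the most abundant, had 46, 35 and 32 counts in adipocyte libraries 1, 2 and 3, against 0 in each preadipocyte library, while S100a9 and Ly6g, which mark mature neutrophils, had 0 counts in all 6. The part of these markers in the receptor values was not tested. Of 6 endothelial markers, 0 of 2 tested passed in either direction with edgeR, also at an unadjusted p of 0.05 and with DESeq2, the most abundant, Vwf, having a log2 change of -0.81 (SE 0.67), and without adipocyte library 3 it was called lower at -2.34. None of the 6 epithelial markers had enough counts to be tested.

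Genes whose levels were most like those of a receptor over the 6 libraries were found by Euclidean distance in log2(TPM + 1), with 3 named per receptor. For Hcar1 these were Klb, the co-receptor of FGF21, at a distance of 0.30, Plcb2 at 0.42 and Vsir at 0.48. Klb stood at 47.80, 51.13 and 54.55 TPM in adipocyte libraries 1, 2 and 3, against 0.06, 0.14 and 0.14 TPM in preadipocyte libraries 1, 2 and 3. Hcar2 was nearest to the amino acid transporter gene Slc36a2 (0.26), then Smkr-ps (0.52) and Aatk (0.54). For Ffar2 they were Angptl8, a regulator of lipoprotein lipase (0.45), Fam83a (0.47) and Klb (0.51). The likest genes to Ffar4 were Mlxipl, which encodes the carbohydrate-response factor ChREBP (0.29), the desaturase gene Scd3 (0.39) and Nat8l (0.41). Mlxipl stood at 33.53, 30.77 and 41.56 TPM in adipocytes, lowest in library 2 as Ffar4 was, against 0.02, 0 and 0 TPM in preadipocytes. Sucnr1 was nearest to the leptin gene Lep (0.32), then Mtss1 (0.48) and Krt36 (0.50). With 3 libraries per state these distances mostly reflect a like level in adipocytes and a level near 0 in preadipocytes.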

How the data were processed

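Total RNA from 3 adipocyte and 3 preadipocyte samples was extracted with phenol-chloroform and made into Illumina libraries, per the labels' protocols. The authors deposited a gene table per library with expected counts, TPM and gene lengths, and the tools named per the submitters' processing notes are Bowtie, Bowtie2, RSEM and DESeq2, with the builds mm10 and GRCm38 and no versions or roles. Deposited expected counts share out reads that match several genes and are not scaled between libraries. Deposited TPM values are scaled per transcript length within a library by the authors. The deposited gene lengths are another value per library, weighted over transcripts. FPKM was not used.

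Identifiers were matched to GENCODE M21 for 54723 of 54752 genes. Expected counts were rounded and tested with edgeR 4.0.16 (R 4.3.3) after filterByExpr and TMM scaling (factors 0.88 to 0.90 in adipocytes and 1.11 to 1.13 in preadipocytes), with the quasi-likelihood F-test, a single term for the state, and p-values adjusted by Benjamini-Hochberg over all 14726 genes (threshold 0.05). CPM uses TMM-scaled library sizes. A group with 0 counts was set to a floor of 3 counts over its libraries (0.0443 CPM in adipocytes, 0.0383 CPM in preadipocytes). Ratios with 1 to 3 counts, or of untested genes, carry exact 95% intervals for counting error only. Alternatives were RLE factors, total counts, DESeq2 1.42.0, no low-count filter, limma 3.58.1 on log2(TPM + 1) and log2(TPM + 0.1) over genes with at least 0.1 TPM in 3 libraries, a replicate block, and each library left out, 13 in all. The edgeR script was tested on simulated counts.

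Same-numbered libraries of both states deviated together, with correlations of 0.66, 0.30 and 0.26 over genes for numbers 1, 2 and 3. All lay above the limit of 0.1, which counts as pairing here although the labels name no shared culture or day. They were not compared with correlations between different numbers. The SEs and edgeR p-values printed here rest on the fit without that pairing, and the replicate block is an alternative. The quasi-likelihood test gives no SE of its own. Each SE was computed as the absolute log2 change divided by the square root of the F value. No library was a copy of another, the nearest pair being preadipocyte libraries 2 and 3 whose counts gave a chi-square per degree of freedom of 3.03 (13912 genes).

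The receptors, lists and tests were chosen with earlier results of these data known. Named from each list were the 2 genes with the largest called change among those with at least 1 TPM in the higher state and the largest opposite one; every tested gene of the small receptor lists; the strongest marker of every further cell type; neighbours; and the 3 likest genes per receptor. Exceptions within lists, such as Adcy9, Slc16a1, Slc16a3, Slc27a1 and the myeloid markers other than Mertk and Camp, were named after their values were seen. Promoter windows came from RefSeq on GRCm38.p6. A protein comparison was not run, and no protein sequences were used here. A few genes of the lists are not reported here.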

Additional observations from a re-analysis of the deposited data

How the results depend on the processing

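The 5 receptors called higher stayed 5, with 0 called lower, under all 13 alternatives. Each had at most 2 preadipocyte counts in all, so they had to differ under any setting and this count supports nothing either. Genes lower in adipocytes numbered 9098 with limma on log2(TPM + 1) and 9078 with limma on log2(TPM + 0.1), against 5575 in the edgeR fit, and genes higher 3517 and 3507, against 5252. Total-count scaling gave 3914 higher and 7481 lower. The cause was not tested, but the median log2 change of all tested genes was -0.06 in the edgeR fit, -0.39 with total counts, and -0.30 and -0.54 in the limma fits. With the replicate block 5763 genes were higher and 6212 lower, the 5 receptors among those higher. Zfp385a was then called higher (0.24), and Rgs16, Grk4, Gnb1 and Gnb2 also gained calls. Leaving out 1 library at a time gave 4929 to 5466 genes higher and 5120 to 5606 lower. Of 47 genes named by the rule, 24 of 611 pairs of gene and alternative had another call, a count that leaves out genes named as exceptions, such as Adcy9 (7 of 13) and Slc16a3 (5 of 13). Among genes named by the rule and called in the edgeR fit, signs turned for Copz1, to -0.13 in both limma fits, and for Gnaq. Gnaq turned to -0.090 with total counts and to -0.190 and -0.196 with limma on log2(TPM + 1) and log2(TPM + 0.1). The cause was not tested. Zfp385a, with no call in the edgeR fit, was -0.087 with total counts and -0.284 and -0.290 in the limma fits, and was called higher without the low-count filter (0.31), without adipocyte library 3 (0.39) and without preadipocyte library 1 (0.35). At 10 or fewer counts per state Gpr84 could show no small difference, and 0 counts over a group allow up to 0.0383 CPM in preadipocytes and 0.0443 CPM in adipocytes.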
